A study of Mus musculus with 6 samples.

Results

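Cone bipolar cells are the retinal interneurons that carry the cone signal from the outer to the inner retina, and 172 of them were found among the 66434 cell barcodes of a single-cell RNA sequencing study of the mouse posterior eye. A barcode was taken as a cone bipolar cell if it had at least 1000 UMIs (molecular identifiers that count captured transcripts), at least 500 detected genes and at most 20% mitochondrial UMIs, which 55353 barcodes had, and if at least 3 of the 8 genes Vsx1, Scgn, Grik1, Cabp5, Neto1, Tacr3, Lhx4 and Gsg1 were detected. Barcodes with any Sebox UMI, more than 1 UMI over Gad1, Gad2 and Slc6a9, more than 2 Dcn UMIs or any Rpe65 UMI were left out. Cells with a UMI of Grm6 or Trpm1 were called ON cells and cells with neither OFF cells, which gave 122 ON and 50 OFF cells. The cells were thus chosen by the measured UMIs of these genes and by depth, and the levels of these genes are given as a description.

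The study asked how the working of the ciliary muscle bears on myopia. In 1 group of 12 mice the eyes received drops of tropicamide, an antagonist of muscarinic acetylcholine receptors that relaxes the ciliary muscle, 10 min apart and 6 in number, and 1 h passed before collection. The comparison group of 12 mice had saline drops at that interval, with no number of drops or wait given, and for neither group do the labels name a strain or an age. Right eyes of 4 mice were pooled for each of the 3 libraries per group, and each pool was made from the back of the eye, with its retina, choroid and sclera. A library is therefore a pool of eyes, and the tests measure the spread between such pools.

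Bipolar cells receive glutamate from photoreceptors. ON types sense it through the metabotropic receptor mGluR6, encoded by Grm6, whose G protein cascade closes the TRPM1 cation channel in the dark, so that these cells depolarize to light. OFF types sense it through ionotropic kainate and AMPA receptors and depolarize in the dark. Rod bipolar cells, the ON type that serves the rods, use the same mGluR6 cascade and were used here for comparison.

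The 3 tropicamide libraries held 31, 34 and 26 cone bipolar cells and the 3 saline libraries 21, 15 and 45. ON cells numbered 23, 22 and 19 after tropicamide and 15, 11 and 32 after saline, and OFF cells 8, 12 and 7 and 6, 4 and 13. The cells carried a median of 5742.5 UMIs (1049 to 33830), and their summed UMIs per library ran from 131543 to 347540. Rods, which made up 52769 barcodes, had medians of 2526 to 2777 UMIs per library. ON cells were deeper than OFF cells, with medians of 6399.5 and 3934.5 UMIs, and a cell of low depth can miss both transcripts. After every cell was thinned to 1000 UMIs, 65 of the 172 cells still showed Grm6 or Trpm1. In rods, which should lack both, 1.14% to 3.56% of cells per library had a UMI of either gene (0.544% to 1.65% after thinning).

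Exactly 3 of the 8 marker genes were detected in 62 cells, 4 in 51, 5 in 49 and 6 in 10. Just outside the rule lay 163 barcodes with 2 of the genes, whose median depth ran from 3280.5 to 6889.5 UMIs per library, and 28 barcodes with enough markers were left out for a Sebox UMI. Over all cone bipolar cells Lhx4, a LIM-homeodomain factor, was detected in 148 cells, the calcium sensor Scgn in 139, the calcium-binding gene Cabp5 in 128, the kainate receptor subunit Grik1 in 114 and Gsg1 in 104. Vsx1, Neto1 and Tacr3 were detected in 23, 21 and 18 cells.

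Bipolar genes that the rule did not use were found in most of the cells. Otx2, a homeobox gene of photoreceptors and bipolar cells, was detected in 146 of the 172 cells, Neurod4, a bHLH factor of bipolar cells, in 132 and the secretion gene Cadps in 167. Pooled Neurod4 was 373 CPM (the usual scaling of a gene's UMIs to the total UMIs of the cells summed), against 2.77 CPM in rods. Genes of other cells were looked up in the same cells. Rod genes took a median of 0.384% of a cell's UMIs and at most 8.78%, the amacrine list had 10 of its 14 genes at 0, and the pigment epithelium list 4 of 13. The rule itself held Gad1, Gad2 and Rpe65 at or near 0, so these 3 zeros say nothing, while Tfap2a, Slc32a1, Best1 and Tyrp1 were at 0 without it. Other lists were not empty. All 12 cone genes had UMIs (2601 CPM summed), as did all 12 fibroblast and vessel genes (293 CPM) and 11 of 13 Müller glia genes (293 CPM). Of the ganglion and horizontal cell genes 4 of 13 had UMIs (11.9 CPM), and of the immune and blood genes 5 of 10 (46.1 CPM). No cone bipolar barcode was shared between libraries. A caller of simulated doublets marked 15 of the 172 cells, against 7.56% of all barcodes that passed, and they were kept in the values below.

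**Figure D1:**
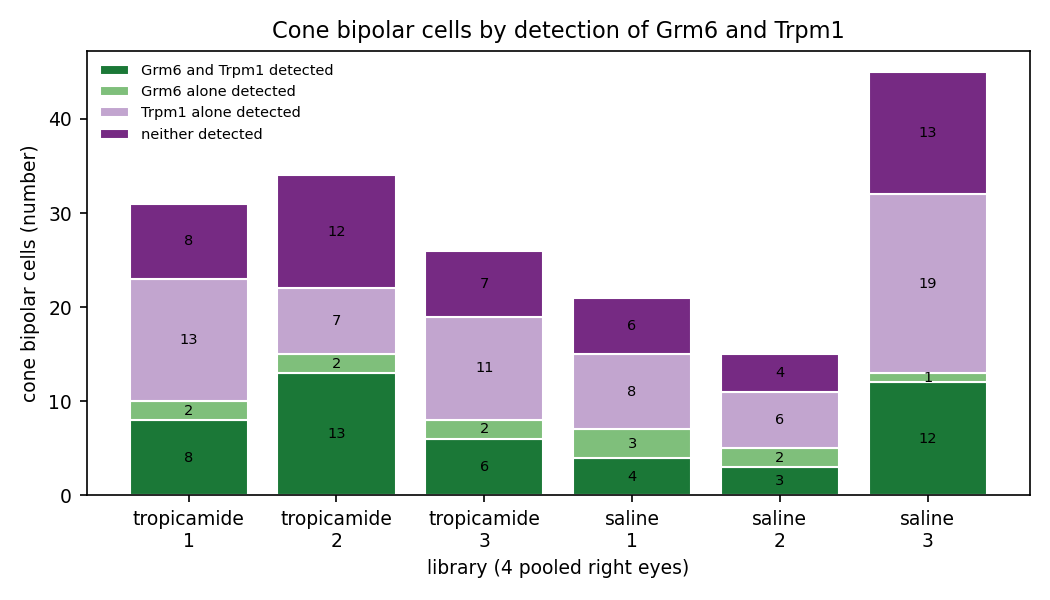
Number of cone bipolar cells in each library (x axis, 3 tropicamide and 3 saline pools of 4 right eyes), stacked by the transcripts detected in each cell; numbers in the bars count cells. Cells with Trpm1 alone number 6 to 19 per library, cells with Grm6 alone 1 to 3.

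The ON label joined cells that differ. Grm6 and Trpm1 were both detected in 46 cells, Grm6 alone in 12, Trpm1 alone in 64 and neither in 50. Isl1, a homeobox gene of ON bipolar cells, was detected in 41 of the 46 cells with both transcripts and in 9 of the 12 with Grm6 alone, but in 7 of the 64 with Trpm1 alone (10.9%, Clopper-Pearson 95% interval 4.51% to 21.2%, counting error only) and in 5 of the 50 with neither. Grik1, the kainate receptor subunit of OFF cells, was detected in 58 of the Trpm1-alone cells (90.6%, 80.7% to 96.5%) and 44 of the cells with neither, in 12 of the cells with both and in 0 of the 12 with Grm6 alone (up to 25.0%). Its pooled level was 6414 CPM in Trpm1-alone cells, 8415 in cells with neither and 53.7 in cells with both. By Isl1 and Grik1 the Trpm1-alone cells thus went against the ON label, and Grm6 detection is used beside it below. Grik1 is itself one of the 8 membership genes, and a cell could enter through it.

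Most Trpm1-alone cells held more than 1 UMI of it. Of the 64 cells 40 had at least 2 Trpm1 UMIs, the highest had 21, and the pooled level was 552 CPM, against 1450.0 CPM in the 46 cells with both and 32.4 CPM in rods. Grm6 is at 0 in these cells by the definition of the class. Pigment cells also transcribe Trpm1, and had 0.0551 Trpm1 UMIs for each UMI of the 4 pigment genes Pmel, Mlana, Dct and Tyrp1. These 4 genes summed to 2 UMIs in the Trpm1-alone cells (4.49 CPM), and the part of pigment cell RNA in their Trpm1 was not tested.

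Trpm1 has 2 start sites in the RefSeq table and Grm6 has 1. The bases upstream of each are shown because these transcripts define the split; the counts do not tell the Trpm1 starts apart. All lie on the plus strand of GRCm38.p6, while the counts were made on GRCm39, and each run is 250 bases, 5′ to 3′, ending just before the start. Capitals mark TAATCC, the core recognised by OTX2 and CRX, or the E-box CATGTG, on either strand; the motifs do not overlap.
Grm6, chr11:50850435-50850684: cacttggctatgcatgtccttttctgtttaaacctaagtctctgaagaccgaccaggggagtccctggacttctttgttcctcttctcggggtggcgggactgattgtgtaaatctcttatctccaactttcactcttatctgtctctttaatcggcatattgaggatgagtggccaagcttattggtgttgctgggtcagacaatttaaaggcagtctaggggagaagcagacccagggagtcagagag
Trpm1, first start, chr7:64153585-64153834: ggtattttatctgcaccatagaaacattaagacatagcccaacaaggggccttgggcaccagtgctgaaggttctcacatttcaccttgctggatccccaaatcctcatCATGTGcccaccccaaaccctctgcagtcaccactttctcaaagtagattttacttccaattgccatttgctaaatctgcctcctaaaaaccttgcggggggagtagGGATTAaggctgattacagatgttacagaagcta
Trpm1, second start, chr7:64185209-64185458: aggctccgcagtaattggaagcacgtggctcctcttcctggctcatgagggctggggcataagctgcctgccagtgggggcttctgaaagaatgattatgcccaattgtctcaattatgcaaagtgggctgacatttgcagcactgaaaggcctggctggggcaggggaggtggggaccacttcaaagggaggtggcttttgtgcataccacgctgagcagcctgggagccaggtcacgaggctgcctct
The first Trpm1 window holds 1 match of each motif, and the other 2 windows hold neither. Of 32851 promoter windows of that length, 6.25% hold TAATCC and 12.3% hold CATGTG.

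Genes of named OFF types fell among the Trpm1-alone cells. Tacr3, the neurokinin 3 receptor and a gene of type 1 and 2 OFF bipolar cells, was detected in 18 cells, of which 16 had Trpm1 alone and 2 neither transcript. All 18 had Grik1, 11 had Neto1, an auxiliary subunit of kainate receptors, 10 the synaptotagmin Syt2 and 9 the homeobox gene Vsx1, while none had Grm6 or Isl1. Gpr179, of the mGluR6 cascade, was detected in 8 of the 18, or 44.4%, against 41.3% of all members. Over the 58 cells with Grm6 a Tacr3 count of 0 allows a share of up to 5.17% with a UMI, which does not limit the share that expresses the gene. Tacr3, Grik1, Neto1 and Vsx1 are membership genes, so cells with several of them were more readily taken in. The cadherin Cdh8, a gene of type 2 cells, had 1662 CPM in Trpm1-alone cells and 284 CPM in cells with neither, and the zinc finger factor Zfhx4 1256 and 213 CPM. The cells with neither transcript held other OFF genes. The transcription factor Fezf2 was detected in 19 of 50, Col11a1, a collagen gene of type 4 cells, in 6 of 50 and in 0 of the other 122, which allows a share of up to 2.46% with a UMI.

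The cells with Grm6 also fell into kinds. Among the 46 with both transcripts Kcng4, a potassium channel gene of type 5 cells, was detected in 23, and Cck, the cholecystokinin gene of type 6 cells, in 9. Of the cells with Cck, 10 in all, 9 had Grm6, 9 had Isl1 and 9 had at least 1 UMI of Grik1. Grik1 is a membership gene, and its pooled level in cells with both transcripts was far below that in Trpm1-alone cells, as given above. That pooled level covers all 46 cells with both transcripts, and the Grik1 level in the Cck cells alone was not examined. What Grik1 detection means for the pathway of the Cck cells was not tested. The 12 cells with Grm6 alone had neither Kcng4 nor Cck (up to 25.0% each). All 12 had Pcp2 and the protocadherin Pcdh17, 11 had Gsg1, 10 had the muscarinic receptor Chrm2, and 9 each had the rod bipolar genes Car8 and Prkca. Chrm2 was detected in 0 of the 46 cells with both transcripts, which allows a share of up to 6.52% with a UMI. The 12 cells came from all 6 libraries, 1 to 3 from each, with a median of 6233.5 UMIs, against 7460.0 in the 46 cells with both, and the part of depth in their missing Trpm1 was not tested. Sebox was 0 in them by the rule.

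**Figure D2:**
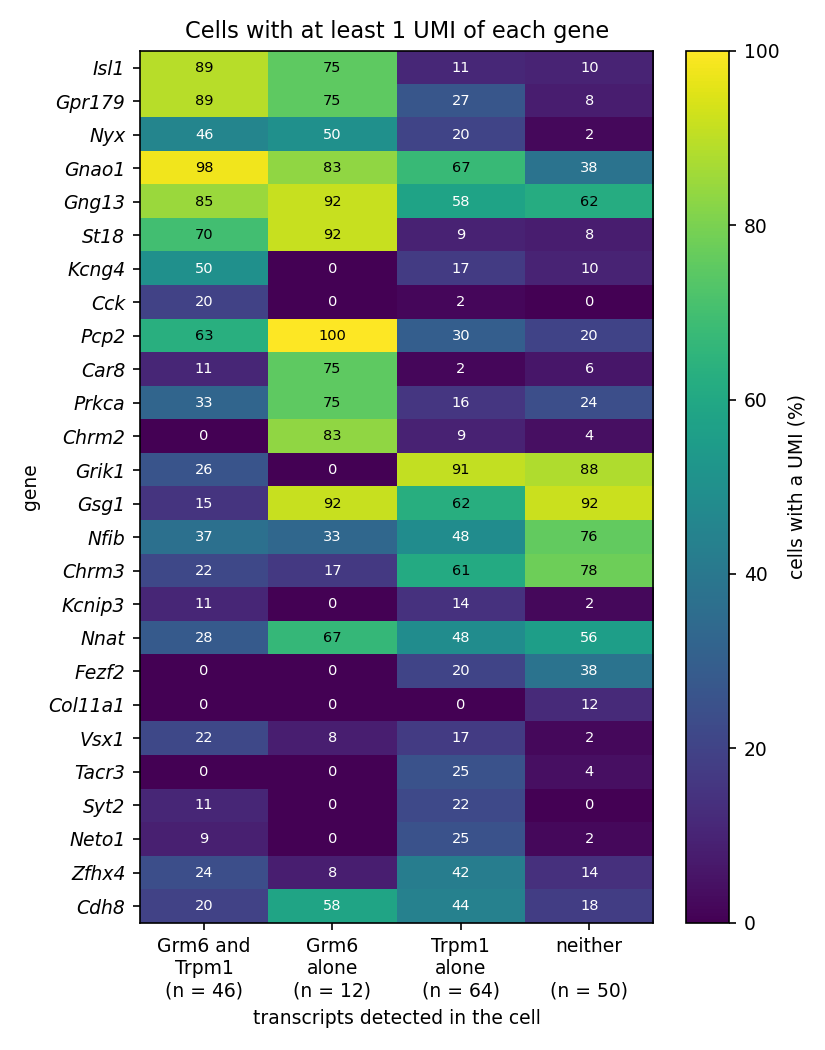
Percent of cells with at least 1 UMI of each gene (rows) in the 4 detection classes (columns, n in cells), pooled over 6 libraries; colour and number both give the percent. Isl1, Gpr179 and St18 are high in both Grm6 columns, Grik1 and Chrm3 in the 2 columns without Grm6.

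ON and OFF cells by the Grm6 or Trpm1 rule were then compared within libraries, on UMIs summed over the cells of each kind, with the library as a block in edgeR. Genes of the mGluR6 cascade, potassium channel and adhesion genes were higher in ON cells, and Kcnip4, Nfib, Chrm3 and Dscam were higher in OFF cells. Of 1692 genes tested, 102 passed an adjusted p of 0.05 (6.03%), 68 higher in ON cells (4.02%) and 34 lower (2.01%), and the median log2 fold change of all genes was -0.01. Without tropicamide library 2 there were 49 calls, 37 higher and 12 lower. At an unadjusted p under 0.05 there were 284 genes (16.8%), and 179 (10.6%) went the same way in 6 of 6 libraries. The 12 highest and 12 lowest calls named below had to go the same way in 6 of 6 libraries, so that agreement is no support for them. Genes of the rule were left out of these counts. A gene at or near 0 in the OFF or the ON sums passed the filter on low counts only through the other sums. Where a list holds such genes, its numbers higher and lower are no separate support.

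Of the 15 genes listed for the mGluR6 cascade 6 could be tested beside Grm6 and Trpm1 themselves, and 3 were higher in ON cells, with 0 lower and a median log2 fold change of 1.29. Gnao1, the G protein subunit that mGluR6 activates, ran from 488 through a median of 548 to 617 CPM in the ON sums and from 50.3 through 162 to 261 CPM in the OFF sums. The ON and OFF values did not overlap, and Gnao1 was higher in ON cells in 6 of 6 libraries (log2 fold change 1.82 ± 0.30 (SE), edgeR adjusted p = 0.00144). Gng13, the gamma subunit of that G protein, ran from 659.7 through a median of 913 to 1076 CPM in the ON sums and from 97.6 through 342 to 726 CPM in the OFF sums, higher in 6 of 6 libraries although the ranges overlapped (log2 fold change 1.38 ± 0.33 (SE), edgeR adjusted p = 0.0197). The call was lost without tropicamide library 2 (edgeR adjusted p = 0.0723) or 3 (edgeR adjusted p = 0.0687). Rgs7, which speeds the G protein's shutdown, had a log2 fold change of 1.20 (edgeR adjusted p = 0.0163), lost without tropicamide library 1 (edgeR adjusted p = 0.0535) or 2 (edgeR adjusted p = 0.0879). With Grm6 cells against all others Rgs7 was at 0.33 and did not pass (edgeR adjusted p = 0.570).

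Among 15 tested transcription factors 4 were higher and 1 lower, with a median of 0.32. Isl1 ran from 175 through a median of 268 to 335 CPM in the ON sums and from 0 through 41.6 to 85.9 CPM in the OFF sums (log2 fold change 2.66 ± 0.42 (SE), edgeR adjusted p = 0.00103). St18, a zinc finger factor, ran from 269 through a median of 343 to 389.7 CPM in the ON sums and from 0 through 44.9 to 129 CPM in the OFF sums (log2 fold change 2.72 ± 0.44 (SE), edgeR adjusted p = 0.00119). For both genes all ON sums lay above all OFF sums. The nuclear factor genes Nfia and Nfib moved apart. Nfia ran from 967 through a median of 1262 to 1552 CPM in the ON sums and from 327 through 399 to 587 CPM in the OFF sums (log2 fold change 1.49 ± 0.25 (SE), edgeR adjusted p = 0.00153), whereas Nfib ran from 122 through a median of 396 to 1174 CPM in the ON sums and from 900.4 through 1523 to 1789 CPM in the OFF sums (log2 fold change -1.82 ± 0.41 (SE), edgeR adjusted p = 0.0130). Nfib was lower in 6 of 6 libraries although its ranges overlapped. The Nfib call was lost without tropicamide library 2 (edgeR adjusted p = 0.0723), and it held when Grm6 cells were set against all others (-2.45, edgeR adjusted p = 1.08e-05). Zfhx4, higher in ON cells by 2.46, turned to -2.32 when Grm6 cells were set against all others (edgeR adjusted p = 0.0202 and 0.00372), and Cdh8 went from 2.87 to -0.98 (edgeR adjusted p = 0.00897 and 0.507). The Zfhx4 call was lost without any 1 of the tropicamide libraries (edgeR adjusted p = 0.0528, 0.0860 and 0.0590). The Trpm1-alone cells, which hold most UMIs of both genes, stand on the ON side in the first split and on the other side in the second.

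The strongest genes on the ON side, which holds the Trpm1-alone cells, were a heparan sulfate enzyme, a potassium channel and a scaffold. Hs3st4, a 3-O-sulfotransferase, had 599 UMIs in ON cells (298 to 978 CPM per library) and 0 in OFF cells of all 6 libraries. Against a floor of 3 counts over all OFF sums it was at least 55.0-fold higher in ON cells (edgeR adjusted p = 7.61e-05), and 521 of the 599 UMIs came from the cells with both transcripts. Kcnb2, a delayed rectifier potassium channel, ran from 1261 through a median of 1834 to 2889 CPM in the ON sums and from 0 through 14.5 to 174 CPM in the OFF sums (log2 fold change 5.36 ± 0.47 (SE), edgeR adjusted p = 1.11e-05). Lin7a, a synaptic scaffold gene, ran from 217 through a median of 451 to 543 CPM in the ON sums and from 0 through 0 to 58.1 CPM in the OFF sums (log2 fold change 4.57 ± 0.52 (SE), edgeR adjusted p = 8.57e-05). Grm5, a metabotropic glutamate receptor, ran from 389 through a median of 797 to 1220.2 CPM in the ON sums and from 0 through 0 to 261 CPM in the OFF sums (log2 fold change 4.11 ± 0.61 (SE), edgeR adjusted p = 0.000776). Each of these 4 genes was higher in ON cells in 6 of 6 libraries, as their naming required, and the ON and OFF ranges did not overlap.

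Of 20 adhesion and wiring genes tested 7 were higher in ON cells and 1 lower, with a median of 0.28. The contactin Cntn5 ran from 2738 through a median of 5091 to 6220.2 CPM in the ON sums and from 0 through 283 to 2033 CPM in the OFF sums (log2 fold change 4.0 ± 0.60 (SE), edgeR adjusted p = 0.000776). By class, Cntn5 was detected in all but 1 of the 58 Grm6 cells, in 9 of 64 Trpm1-alone cells and in 5 of 50 cells with neither. The guidance receptors Robo2 and Epha7, the cadherin Cdh9, a gene of type 5 cells, and the teneurins Tenm2 and Tenm4 were higher by 3.36, 2.63, 3.76, 1.86 and 2.16 on the log2 scale, with edgeR adjusted p of 0.000372, 0.000336, 0.000133, 0.00422 and 0.000776. Tjp1, the tight junction scaffold ZO-1, which also sits at gap junctions, was higher by 2.64 (edgeR adjusted p = 0.00103). Gabrr2, a GABA receptor subunit of bipolar terminals, was the 1 of 9 inhibitory receptor genes that passed (log2 fold change 1.45 ± 0.30 (SE), edgeR adjusted p = 0.00770). Of the 58 ribosomal protein genes 0 passed, with a median of -0.19.

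OFF cells were higher in Kcnip4, a modulator of A-type potassium channels, which ran from 2450.3 through a median of 4318 to 10389.6 CPM in the ON sums and from 14435 through 16229.7 to 27523 CPM in the OFF sums (log2 fold change -1.95 ± 0.31 (SE), edgeR adjusted p = 0.00103). Dscam, an adhesion molecule of retinal lamination, ran from 169 through a median of 407 to 834 CPM in the ON sums and from 755 through 1407 to 1919 CPM in the OFF sums (log2 fold change -1.68 ± 0.34 (SE), edgeR adjusted p = 0.00703). Lgr5, a receptor for R-spondins, ran from 19.8 through a median of 88.0 to 154 CPM in the ON sums and from 163 through 282 to 389 CPM in the OFF sums (log2 fold change -1.77 ± 0.30 (SE), edgeR adjusted p = 0.00181). In the 3 genes every library was higher in its OFF sum, as their naming required. The secreted TAFA genes Tafa2 and Tafa3 had log2 fold changes of -2.05 and -1.64 and the Notch ligand gene Dner of -2.05, all lower in ON cells (edgeR adjusted p = 0.00834, 0.00207 and 0.00359). The Tafa2 call was lost without tropicamide library 2 (edgeR adjusted p = 0.0508).

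Chrm3, the M3 muscarinic receptor, is one of the receptors that tropicamide blocks. It ran from 129.9 through a median of 386 to 863 CPM in the ON sums and from 842 through 1139 to 2440.0 CPM in the OFF sums, and each library was higher in its OFF sum although the ranges just overlapped (log2 fold change -1.68 ± 0.38 (SE), edgeR adjusted p = 0.0143). The call was lost without tropicamide library 2 (edgeR adjusted p = 0.0869). With Grm6 cells set against cells with neither transcript the log2 difference was -3.36 (edgeR adjusted p = 3.61e-05). Chrm3 was detected in 10 of 46 cells with both transcripts, 2 of 12 with Grm6 alone, 39 of 64 with Trpm1 alone and 39 of 50 with neither. After thinning to 1000 UMIs it was detected in 25.4% of ON cells, 58.0% of OFF cells and 0.497% of rods. Pooled Chrm2 was 56.3 CPM over all cone bipolar cells, against 5.91 CPM in rods, and Chrm1, Chrm4 and Chrm5 had 0 UMIs in the 172 cells, which allows up to 2.56 CPM.

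Of the 5 cone genes tested 2 were lower in ON cells and 0 higher, with a median of -0.88. Gnat2 and Gngt2, the alpha and gamma subunits of cone transducin, were lower in ON cells in 6 of 6 libraries each, with log2 fold changes of -1.56 and -1.55 (edgeR adjusted p = 0.00495 and 0.00295). With Grm6 cells against all others Gnat2 was at -1.26 and did not pass (edgeR adjusted p = 0.0777). The 12 listed cone genes summed to 1293 to 2998 CPM in ON cells and to 1301 to 16174 CPM in OFF cells, with the highest OFF sums in tropicamide library 3 (16174 CPM) and saline library 1 (10339.5 CPM). In saline library 2 the cone sum was lower in OFF than in ON cells (1301 and 1419 CPM). The 17 rod genes summed to 2778 to 7276 CPM in ON cells and 3933 to 14464 CPM in OFF cells, and the rod gene Pde6g had a log2 fold change of -1.27 (edgeR adjusted p = 0.0160), lost without tropicamide library 1 or 2 (edgeR adjusted p = 0.0671 and 0.0694) and at -0.59 with Grm6 cells against all others (edgeR adjusted p = 0.114). The part of photoreceptor RNA in the differences above was not tested. The split itself follows depth, and with cells thinned to 1000 UMIs before it, 47 genes could be tested and 0 passed (6 at an unadjusted p under 0.05), with saline library 2 out of the fit for want of ON cells.

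**Figure D3:**
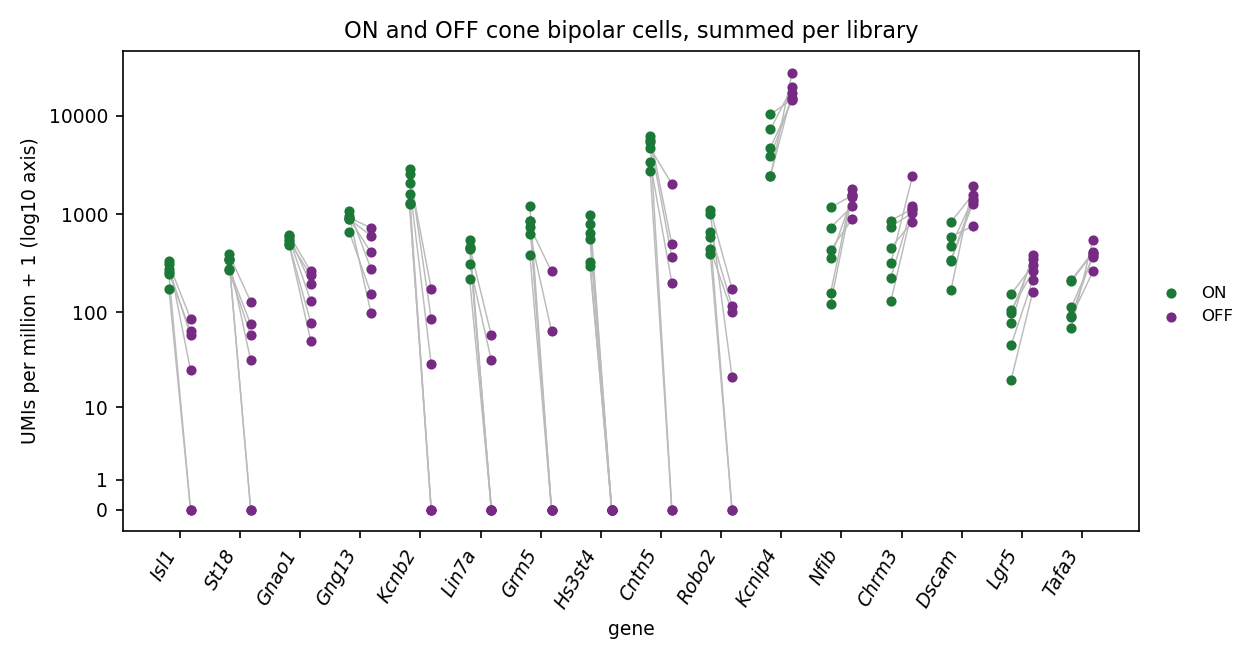
CPM in the ON (green) and OFF (purple) sums of each of the 6 libraries, on a log10 axis after adding 1; grey lines join the sums of a library. Hs3st4 is at 0 in all 6 OFF sums, and the 6 genes from Kcnip4 to Tafa3 are higher in the OFF sum of every library.

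Cone bipolar cells were also set against the 125 rod bipolar cells, taken as barcodes with Sebox, fewer than 3 of the 8 marker genes and at least 2 of Prkca, Grm6, Trpm1, Pcp2, Car8 and Vstm2b, with 15 to 29 per library. Cone bipolar cells were higher in AMPA, GABA, dopamine D1 and M3 receptor genes and in many adhesion genes, and lower in the mGluR6 cascade, mitochondrial transcripts and metallothioneins. Of 3373 genes 849 passed (25.2%), 473 higher in cone bipolar cells (14.0%) and 376 lower (11.1%), with a median log2 fold change of -0.01 over all genes. At an unadjusted p under 0.05 there were 1167 (34.6%), and 896 (26.6%) went the same way in 6 of 6 libraries. Genes of either rule were left out of these counts. A gene at or near 0 in one kind of bipolar cell passed the filter on low counts only through the other kind. Where a list holds such genes, its numbers higher and lower are no separate support.

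Of the 13 genes in the ionotropic glutamate receptor list 4 could be tested, and all 4 were higher in cone bipolar cells, with a median log2 fold change of 3.04. For Gria1, an AMPA subunit, the call was lost without saline library 1 (edgeR adjusted p = 0.0657). It was also lost without tropicamide library 1 or 3 (edgeR adjusted p = 0.0554 and 0.0628). Gria2, the AMPA receptor subunit that sets calcium permeability, ran from 426 through a median of 572 to 727 CPM in cone bipolar cells and from 0 through 3.04 to 14.2 CPM in rod bipolar cells (log2 fold change 6.94 ± 0.35 (SE), edgeR adjusted p = 2.59e-10). Gria4, another AMPA subunit, ran from 67.0 through a median of 128 to 289 CPM in cone bipolar cells and from 0 through 3.55 to 12.0 CPM in rod bipolar cells (log2 fold change 4.72 ± 0.46 (SE), edgeR adjusted p = 3.92e-07). The 2 cell kinds did not overlap for either gene. Both genes passed the filter on low counts only through their cone bipolar counts, so that all 4 tested genes were higher is no separate support. Gria2 was also higher in the 58 cone bipolar cells with Grm6 (log2 fold change 6.70, edgeR adjusted p = 1.05e-09), the ON cells by the mGluR6 transcript.

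Of 11 inhibitory receptor genes 7 were higher and 0 lower, with a median of 1.04. Gabrr3, a rho subunit of GABA receptors, was counted at 112 to 293 CPM per library and at 0 in all rod bipolar sums, at least 56.3-fold higher against a floor of 3 counts over the rod bipolar sums (edgeR adjusted p = 3.22e-07). Gabbr2, a GABA-B receptor subunit, was at 153 to 247 CPM and likewise at 0 in rod bipolar cells, at least 65.1-fold higher (edgeR adjusted p = 2.19e-07). Gabrr3 and Gabbr2 passed the filter on low counts only through their cone bipolar counts, so the 7 higher and 0 lower are no separate support.

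Receptors for modulators went in both directions. Drd1, the D1 dopamine receptor, had 164 UMIs in cone bipolar cells (83.6 to 184 CPM) and 0 in rod bipolar cells, at least 45.3-fold higher (edgeR adjusted p = 9.44e-07). Drd2, the D2 receptor, ran from 5.64 through a median of 27.9 to 40.2 CPM in cone bipolar cells and from 66.2 through 124 to 192 CPM in rod bipolar cells (log2 fold change -2.24 ± 0.31 (SE), edgeR adjusted p = 2.21e-05). Chrm3 ran from 395 through a median of 663 to 939 CPM in cone bipolar cells and from 0 through 0 to 51.9 CPM in rod bipolar cells (log2 fold change 5.60 ± 0.41 (SE), edgeR adjusted p = 1.71e-08). Chrna7, a nicotinic receptor subunit, was higher by 4.22 (edgeR adjusted p = 3.78e-07). Drd1, Chrm3 and Chrna7 were each higher in cone bipolar cells in 6 of 6 libraries and Drd2 lower in 6 of 6. Drd1, at 0 in rod bipolar cells, passed the filter on low counts only through its cone bipolar counts.

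The mGluR6 cascade was lower in cone bipolar cells in 7 of the 9 genes tested, with 0 higher and a median of -0.95. Gnao1 ran from 372 through a median of 471 to 563 CPM in cone bipolar cells and from 1221 through 1246 to 1710.2 CPM in rod bipolar cells (log2 fold change -1.45 ± 0.15 (SE), edgeR adjusted p = 7.18e-07), and Rgs7 ran from 198 through a median of 577 to 791 CPM in cone bipolar cells and from 1561 through 2248 to 2568 CPM in rod bipolar cells (log2 fold change -2.02 ± 0.27 (SE), edgeR adjusted p = 1.59e-05). Isl1 ran from 127 through a median of 234 to 254 CPM in cone bipolar cells and from 512 through 624 to 965 CPM in rod bipolar cells (log2 fold change -1.53 ± 0.17 (SE), edgeR adjusted p = 1.74e-06), and Gpr179, the receptor that anchors the RGS proteins, had a log2 fold change of -1.50 (edgeR adjusted p = 5.77e-05). Limited to cone bipolar cells with Grm6, Gnao1 and Rgs7 were still lower (log2 fold changes -0.68 and -1.85, edgeR adjusted p = 0.00515 and 1.16e-05). In those cells Isl1 was at -0.34, Gpr179 at -0.50, Gng13 at -0.18 and Gnb3 at -0.11, and none of the 4 passed (edgeR adjusted p = 0.241, 0.116, 0.561 and 0.739).

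At the output synapse 9 of 21 ribbon and release genes were higher and 2 lower, with a median of 0.34. Rims1, an active zone scaffold, ran from 377 through a median of 408 to 639 CPM in cone bipolar cells and from 45.4 through 52.8 to 73.5 CPM in rod bipolar cells (log2 fold change 3.09 ± 0.20 (SE), edgeR adjusted p = 4.64e-09). Cacna2d1, a calcium channel subunit, was higher by 3.11 and Cacna1d, the CaV1.3 channel, by 0.90 (edgeR adjusted p = 1.42e-09 and 0.000726). Slc17a7, the vesicular glutamate transporter, was higher by 0.65 (edgeR adjusted p = 0.00303), which missed the threshold in cells with Grm6 (edgeR adjusted p = 0.0524). Among voltage-gated channel genes 4 of 9 were higher and 1 lower. Cacna1h, a T-type calcium channel, had 313 UMIs in cone and 2 in rod bipolar cells, a ratio of 129.5 with a counting interval of 35.6 to 1074 (edgeR adjusted p = 2.53e-09). Kcnip4 was higher by 5.56 (edgeR adjusted p = 9.24e-12), and by 1.81 when the cells had Grm6.

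Of 25 adhesion genes 14 were higher and 6 lower, with a median of 2.08. Genes with no or almost no UMIs in rod bipolar cells passed the filter on low counts only through their cone bipolar counts. The number of adhesion genes higher and their median are therefore no separate support. Ptprz1, a receptor phosphatase, Cntnap5a, of the contactin-associated family, and Cdh8 had 1268, 1118 and 981 UMIs in cone bipolar cells and 0 in rod bipolar cells, at least 349.9-fold, 308-fold and 271-fold higher. Unc13c, of the vesicle priming family, was at least 241-fold higher. The protocadherin Pcdh9 ran from 3079 through a median of 4230.1 to 6689.8 CPM in cone bipolar cells and from 0 through 3.24 to 14.7 CPM in rod bipolar cells (log2 fold change 9.67 ± 0.35 (SE), edgeR adjusted p = 6.15e-12). Kirrel3, an adhesion gene, stood at 567 to 1080 CPM in 5 libraries and at 4576 CPM in saline library 2, with a single UMI in rod bipolar cells. Zfp804b, a zinc finger gene, ran from 8300.4 through a median of 12092 to 15052 CPM in cone bipolar cells and from 7.10 through 19.5 to 44.0 CPM in rod bipolar cells (log2 fold change 9.02 ± 0.29 (SE), edgeR adjusted p = 1.49e-12).

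Transcription factors split, with 7 of 19 higher and 6 lower. Nfib ran from 502 through a median of 552 to 1278 CPM in cone bipolar cells and from 0 through 6.59 to 51.9 CPM in rod bipolar cells (log2 fold change 5.49 ± 0.34 (SE), edgeR adjusted p = 2.00e-09), and Nfia and the homeobox gene Meis2 were higher by 4.87 and 3.11 (edgeR adjusted p = 1.12e-08 and 8.36e-09). Prdm8, which rod bipolar cells need to form, ran from 0 through a median of 27.0 to 39.9 CPM in cone bipolar cells and from 188 through 249 to 504 CPM in rod bipolar cells (log2 fold change -3.49 ± 0.34 (SE), edgeR adjusted p = 3.62e-07). All rod bipolar sums lay above the cone bipolar sums for Prdm8 and below them for Nfib, Nfia and Meis2.

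Other genes were nearly confined to the rod bipolar sums. The acid-sensing channel Asic2 ran from 0 through a median of 1.44 to 121 CPM in cone bipolar cells and from 2270.0 through 2745 to 3492 CPM in rod bipolar cells (log2 fold change -7.05 ± 0.54 (SE), edgeR adjusted p = 2.77e-08). Its highest cone bipolar value came from tropicamide library 1. Sorl1, a sorting receptor, had 125 UMIs in rod bipolar and 0 in cone bipolar cells, at least 50.3-fold lower. Lrrtm4, a leucine-rich synaptic adhesion gene, ran from 45.6 through a median of 76.5 to 205 CPM in cone bipolar cells and from 2902 through 3637 to 4254 CPM in rod bipolar cells (log2 fold change -5.13 ± 0.27 (SE), edgeR adjusted p = 3.83e-10). The adhesion gene Sdk1 and the granin Chgb were lower, with log2 fold changes of -5.92 and -3.30 (edgeR adjusted p = 1.84e-09 and 3.95e-10).

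Mitochondrially encoded genes were lower in cone bipolar cells in 6 of 11, with a median of -0.51, and their summed level was 13425 to 17492 CPM against 20947 to 28704 CPM in rod bipolar cells. The metallothionein genes Mt1 and Mt2 were lower, with log2 fold changes of -1.80 and -1.96 (edgeR adjusted p = 2.30e-07 and 4.64e-06). Rod genes were lower in 7 of 17 and higher in 1, and summed to 4652 to 7948 CPM against 6413 to 15225 CPM. Their part in the mitochondrial and metallothionein differences was not tested. The cone genes Cngb3 and Gngt2 were higher by 3.29 and 2.30 (edgeR adjusted p = 0.000103 and 0.00468), and the whole cone list summed to 1391 to 5474 CPM in cone bipolar and 1037 to 7834 CPM in rod bipolar cells. The Gngt2 call was lost in cells with Grm6 (edgeR adjusted p = 0.240).

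**Figure D4:**
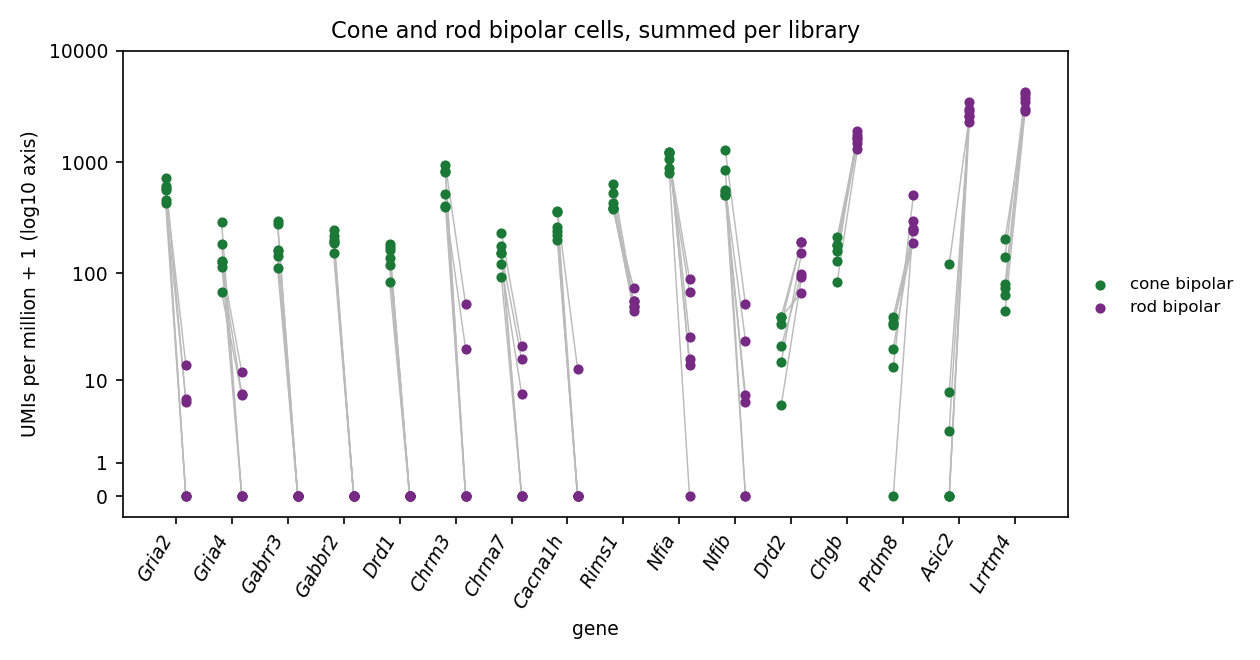
CPM in the cone bipolar (green) and rod bipolar (purple) sums of each of the 6 libraries, on a log10 axis after adding 1; grey lines join the sums of a library. Gabrr3, Gabbr2 and Drd1 are at 0 in every rod bipolar sum, and the last 5 genes are higher in rod bipolar cells.

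Tropicamide and saline cells were compared over 3 libraries each. Cone bipolar cells made up 0.388%, 0.290% and 0.250% of the barcodes that passed after tropicamide and 0.282%, 0.175% and 0.488% after saline, with means of 0.310% ± 0.0711 and 0.315% ± 0.159 (SD, n = 3; exact permutation p = 0.9, two-sided). The number of cone bipolar cells per rod bipolar cell was 1.44 ± 0.162 with tropicamide and 1.24 ± 0.283 with saline (SD, n = 3; exact permutation p = 0.3). ON cells were 70.7% ± 5.19 and 72.0% ± 1.20 of the cone bipolar cells (SD, n = 3; exact permutation p = 1.0). Median depth was 5361 ± 667 UMIs after tropicamide and 6224 ± 368 after saline (SD, n = 3; exact permutation p = 0.1, 0.4 adjusted over the 4 tests), with all 3 tropicamide medians below the 3 saline medians. The closest were 5983 UMIs in tropicamide library 1 and 5984 in saline library 1. With the mean of log2 UMIs in place of the median the groups overlapped (exact permutation p = 0.2). With 3 libraries against 3 an exact test cannot go below p = 0.1. None of the 4 differences passed.

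Of 3702 genes tested in the summed cone bipolar cells, 0 passed an adjusted p of 0.05 with edgeR (0.0%) and 0 with DESeq2. At an unadjusted p under 0.05 there were 122 genes with edgeR (3.3%) and 33 with DESeq2, and 341 genes had groups that did not overlap (9.21%). In simulated data of this size the edgeR test recovered 98.5% of 4-fold, 19.4% of 2-fold and 1.54% of 1.5-fold changes, so that changes of 2-fold and less were mostly not detectable at this depth. Of its 85 calls in the simulated data 7 were false (8.24%).

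Receptor and cascade genes did not separate the groups beyond the test. Grm6 was at 129, 265 and 179.6 CPM after tropicamide and 184, 83.6 and 169.8 CPM after saline. Chrm3 was at 514, 395 and 825 CPM after tropicamide and 939, 813 and 406 CPM after saline (log2 fold change -0.35 ± 0.33 (SE), edgeR adjusted p = 0.997). Isl1 was at 246, 254 and 253 CPM after tropicamide and 127, 190.1 and 222 CPM after saline, so that its groups did not overlap (log2 fold change 0.41 ± 0.24 (SE), edgeR adjusted p = 0.997). Of the 14 mGluR6 cascade genes tested 0 passed, with a median log2 fold change of 0.15 against -0.00 for all genes, and of the 7 ionotropic glutamate receptor genes 0 passed, with a median of -0.06. Gria4, the one of these with an unadjusted p under 0.05, was at 67.0, 129.6 and 113 CPM after tropicamide and 184, 289 and 127 CPM after saline (log2 fold change -0.93 ± 0.36 (SE), edgeR adjusted p = 0.997). Of 13 inhibitory receptor genes, 22 ribbon genes and 20 transcription factors 0 passed, with medians of 0.10, 0.03 and -0.04.

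Early response and stress genes were read in the same sums. Egr1, an activity-induced transcription factor, was at 277, 186 and 366 CPM after tropicamide and 254, 182 and 176 CPM after saline (log2 fold change 0.41 ± 0.27 (SE), edgeR adjusted p = 0.997). The 7 early response genes tested had a median log2 fold change of 0.23, the 6 glucocorticoid targets 0.13 and the 15 clock genes -0.06, with 0 past the threshold in each. Fkbp5, a glucocorticoid target, had 16.9 to 26.8 CPM after tropicamide and 7.60 to 49.4 CPM after saline and was too low to be tested. Of the 58 ribosomal protein genes 46 had a log2 fold change above 0, with a median of 0.13 against -0.003 for all genes tested. Among these 58 genes 0 passed and 1 had an unadjusted p under 0.05 with edgeR.

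The 5 genes of smallest p were Ttr, Kctd8, Ehbp1, Arl15 and Lrfn2. Ttr, the thyroxine and retinol carrier that the pigment epithelium makes in quantity, was at 71.4, 169 and 139.7 CPM after tropicamide and 14.1, 7.60 and 40.3 CPM after saline (log2 fold change 2.19 ± 0.49 (SE), edgeR adjusted p = 0.997). The 13 listed pigment epithelium genes, Ttr among them, summed to 223 to 400.2 CPM after tropicamide and 77.6 to 236 CPM after saline, with Best1, Tyrp1 and Slc26a7 at 0, and Rpe65 at 0 by the rule, and the part of RNA from those cells in the Ttr values was not tested. Ehbp1, an endocytic adaptor, was at 192, 209 and 226 CPM after tropicamide and 346, 426 and 368 CPM after saline (log2 fold change -0.90 ± 0.21 (SE), edgeR adjusted p = 0.997). Kctd8, an auxiliary subunit of GABA-B receptors, was at 107, 5.64 and 53.2 CPM after tropicamide and 296, 395 and 164 CPM after saline (log2 fold change -2.24 ± 0.53 (SE), edgeR adjusted p = 0.997). Lrfn2, a synaptic adhesion gene, was at 44.7, 73.3 and 86.5 CPM after tropicamide and 184, 129 and 147 CPM after saline (log2 fold change -1.23 ± 0.30 (SE), edgeR adjusted p = 0.997). In all 5 genes the groups did not overlap, as in 9.21% of all genes tested, and none passed the threshold. They were chosen by smallest p, so the lack of overlap is no support for a difference. Rod genes had a log2 fold change above 0 in 14 of 16, with a median of 0.35 against -0.003 for all genes tested. Among these 16 genes 0 passed and 1 had an unadjusted p under 0.05 with edgeR. The rod list summed to 4988 to 7948 CPM after tropicamide and 4652 to 6861 CPM after saline.

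Genes of single types varied widely between libraries of a group. Tacr3 was detected in 4, 4 and 3 cells after tropicamide and in 0, 1 and 6 after saline, and Neto1 was at 143, 282 and 66.5 CPM after tropicamide and 7.06, 15.2 and 317 CPM after saline. Whether ON and OFF cells differed in their response was tested with limma on the difference between the ON and OFF sums of each library. Of 1692 genes 0 passed (0.0%), with 49 at an unadjusted p under 0.05 (2.9%). Without saline library 3, which held 45 of the 81 saline cells, 6 passed, all lower.

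**Figure D5:**
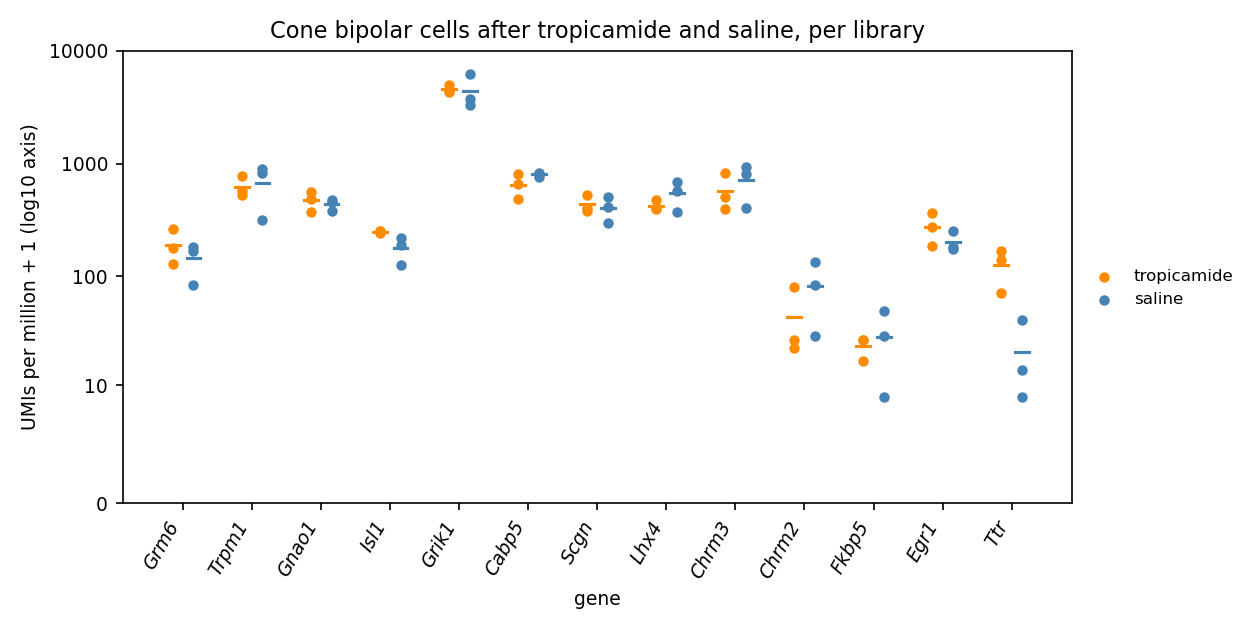
CPM in the summed cone bipolar cells of each library, 3 after tropicamide (orange) and 3 after saline (blue), on a log10 axis after adding 1; bars are group means. The groups overlap for Grm6, Trpm1, Grik1 and Chrm3 and do not overlap for Isl1 and Ttr, and no gene passed the test.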

How the data were processed

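Single-cell 3' libraries were made from 6 pools of 4 right eyes, 3 per group. The deposited matrices hold UMI counts per gene and barcode, for which the authors ran Cell Ranger (version 8.0.1 per the file headers). STAR and GRCm39 come from the submitters' processing notes. For the annotation release, intron counting and cell calling nothing is given in the sources used here. The labels' extraction text describes bone and sorted cells, and was not used. The 6 files list 33696 genes, and 26 symbols stand for more than 1 gene. Libraries held 30761887 to 49477707 UMIs over 9472 to 13518 barcodes, and at most 64 barcodes were shared by any pair of libraries.

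Members, classes and gene lists were chosen with earlier results of these data known. UMIs were summed per library and cell kind. edgeR 4.0.16 quasi-likelihood fits (TMM scaling, filter on low counts by expression) used the library as a block for ON against OFF and for cone against rod bipolar cells, and the group alone for tropicamide, with Benjamini-Hochberg adjustment over all genes tested. The difference of effects was fitted with limma 3.58.1 on log2 CPM with a prior count of 2, and DESeq2 1.42.0 was an alternative. Shares were compared with two-sided exact permutation tests over libraries (20 arrangements), with p-values adjusted over 4 tests. Tests of tropicamide in ON cells alone and in OFF cells alone needed at least 15 cells in every library and were not run, since the fewest were 11 and 4.

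Intervals are Clopper-Pearson at 95%, a count of 0 is read against 3 counts, and both cover counting error only. To compare detection at equal depth, cells were thinned to 1000 UMIs. Doublets were scored against 2 simulated doublets per barcode (30 components of 2000 variable genes, 50 neighbours), with 0.8% called per 1000 barcodes, and were removed only as an alternative. Rods were barcodes with at least 4 of 7 rod genes, outside the bipolar rules. Each fit was tested on simulated data with 1.5-fold, 2-fold and 4-fold changes. False calls were 8.24% of the simulated calls for tropicamide, 4.04% for ON against OFF and 6.57% for cone against rod bipolar cells.

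Genes were named if the adjusted p was under 0.05, the mean was at least 50 CPM in the higher group and all libraries went one way, taking the 12 highest and 12 lowest fold changes and up to 6 per list by smallest p. Where none passed, the 5 genes of smallest p were named. The 8 markers, Grm6, Trpm1, Chrm1 to Chrm5, Fkbp5 and Egr1 were always named, while class and co-detection genes and the further members of lists were chosen after their values were seen. Alternatives were other scaling or filters, stricter cell rules, thinning, doublet removal, each library left out, and, chosen after seeing the data, splits by Grm6 alone. The labels state no pairing by replicate number, and the samples were taken as unpaired. Same-numbered tropicamide and saline libraries had correlations of -0.05406, 0.08512 and -0.04733, and the others -0.1325 to 0.1575. With 3 libraries per group such values cannot show whether samples were handled in pairs. Promoter sequences are from RefSeq on GRCm38.p6. Other tools were Python 3.11.15, numpy 2.4.6, pandas 2.3.3, scikit-learn 1.9.0, scipy 1.17.1, matplotlib 3.10.9 and R 4.3.3. A few items are not reported here.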

Additional observations from a re-analysis of the deposited data

How the results depend on the processing

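The 0 calls for tropicamide held in every fit but that with no filter on low counts, which called 13 of 17434 genes (4 higher, 9 lower). With no filter, ON against OFF gave 262 calls against 102 and cone against rod bipolar 1553 against 849. Thinning to 1000 UMIs left 0 of 47 genes (6 at an unadjusted p under 0.05, edgeR) for ON against OFF and 43 of 87 for cone against rod bipolar cells, and saline library 2 had no thinned ON cell. Grm6 cells against all others gave 186 calls, 93 in each direction, of which 66 were among the 102. In that split Cdh8 was at -0.98, Zfhx4 at -2.32 and Gnb5 at 0.74, each of opposite sign. DESeq2 called 580 genes for cone against rod bipolar cells. The cause was not tested.

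With 1 library left out, ON against OFF gave 49 (without tropicamide library 2) to 116 calls, cone against rod bipolar 688 to 795, tropicamide 0, and the difference of effects 0 to 6 (6 without saline library 3). As a log2 odds difference, tropicamide minus saline, the share of cone bipolar cells was 0.07 and ranged from -0.29 to 0.44 with 1 library left out, and it was -0.076 with at least 4 markers. The log2 cone to rod bipolar ratio differed by 0.23, by 0.09 to 0.40 with 1 library left out and by -0.084 after thinning. The ON share differed by -0.06, by -0.18 to 0.13 with 1 library left out, by 0.91 after thinning, by 0.10 at 2000 UMIs and by 0.22 for cells with Grm6 detected. Log2 UMIs per cell differed by -0.22, by -0.30 to -0.12 with 1 library left out. No share passed its exact test in any setting, and 3 libraries against 3 could not have passed.

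With the replicate number as a block, edgeR called 0 genes for tropicamide (111 at an unadjusted p under 0.05) and limma 0 for the difference of effects (35 unadjusted), and the exact permutation p was 1.0 for the share, 0.5 for the ratio and 1.0 for the ON share. That replicate block changed no call. Without the library as a block, ON against OFF gave 127 calls and cone against rod bipolar 859, and among the genes named Cdh8, Zfhx4, Nxph1 and Scg2 lost the call in the first and Gngt2 and Ptgds in the second. Of the named genes that passed, 26 of 43 for ON against OFF and 77 of 98 for cone against rod bipolar cells kept their call under every setting that could be fitted.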

Other observations

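With the 58 Grm6 cells set against the other 114 members, a split chosen after the class values were seen, some differences were wider and some narrower than with the Grm6 or Trpm1 rule. Dscam was at a log2 fold change of -5.22 and Kcnip4 at -4.50, against -1.68 and -1.95 in the first split (edgeR adjusted p = 5.16e-06 and 3.85e-05). Isl1 was at 3.61 (edgeR adjusted p = 3.95e-06). Further genes passed in the Grm6 split that did not pass in the first. Pcp2, a Purkinje and bipolar cell gene, was higher by 2.54, the G protein subunit Gnb3 by 1.89, the metallothionein Mt1 by 2.40 and the D1 receptor Drd1 by 1.40 (edgeR adjusted p = 0.00180, 0.000497, 0.000284 and 0.00335). Other genes moved towards 0. Kcnb2 was at 2.37, Lin7a at 3.23, Grm5 at 2.88 and Tenm2 at 0.88, against 5.36, 4.57, 4.11 and 1.86 in the first split (edgeR adjusted p = 5.94e-05, 0.000531, 0.000189 and 0.0348). Rgs7 and Pde6g no longer passed, at 0.33 and -0.59 (edgeR adjusted p = 0.570 and 0.114). Whether the splits themselves differ was not tested.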
